A study of Mus musculus with 4 samples.

Results

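The multiciliated cell fate regulators described here are Gmnc, Mcidas, Gmnn, Ccno, Deup1, Myb, Trp73, Foxj1, Rfx2 and Rfx3. They were chosen by name, with earlier results of these data known. They are 10 of the 31053 genes listed in each matrix, and all 10 had at least 1 UMI (unique molecular identifier, a count of captured mRNA molecules) in each of the 4 libraries. The libraries hold single cells of the dorsal ventricular-subventricular zone (V-SVZ), the germinal layer beside the lateral ventricle, from OF1 mice (Charles River) at postnatal day 2 (P2, 1 library), P12 (2 libraries, replicates 1 and 2, from independent experiments) and P22 (1 library). All the mice were wild type and none was treated, and the groups differ by age. They also differ in the version of Cell Ranger, 3.1.0 for P12 and 5.0.1 for P2 and P22. The labels call the mice male, and the study's methods say that 2 mice were pooled at each time point, that papain-dissociated viable cells were sorted before capture with the 10x Genomics 3' version 3 chemistry, and that a female was found afterwards to be among the P2 mice. With 1 library each, P2 and P22 entered no test of their own, and the ages are described by their values.

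In multiciliated cells, Gmnc (GEMC1) and Mcidas (multicilin) are geminin-related nuclear proteins that act with E2F4 or E2F5 at the top of the program, and Gmnn (geminin), an inhibitor of replication licensing, binds both. Ccno (cyclin O) and Deup1, a building protein of the deuterosome, serve the amplification of centrioles that become the basal bodies of cilia, and Myb and Trp73 (p73) are transcription factors of the same program. Foxj1, Rfx2 and Rfx3 are transcription factors that switch on genes of the motile cilium. Ependymal cells, which line the ventricle and beat cerebrospinal fluid with tufts of cilia, arise from the same radial glia as the neural stem cells (NSCs) of this zone.

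Among the 8 regulators with a promoter in the RefSeq table (GRCm38.p6, 250 bases before to 50 bases after a transcription start), 6 held the X-box core GTTGCC or its other strand GGCAAC, the letters that RFX factors recognise. The match lay in 6 of 11 windows of these genes, against 12.5% of all 32851 mouse promoter windows and 11.5% of the 6011 windows with at least 65% G and C. Of the 11 windows, 7 were as rich in G and C, and 6 of those 7 held the match. The 4 windows below belong to the Ccno, Mcidas, Deup1 and Rfx2 genes and show where it lies, 219, 195, 79 and 116 bases before the start. The capitals mark GTTGCC or GGCAAC, and in Deup1 also TTCCCGC, an E2F motif (GCGGGAA on the other strand), and none of these letters overlaps another motif searched. They are chr13:112987552-112987851 (+ strand), chr13:112993618-112993917 (+), chr9:15627797-15628096 (−) and chr17:56830959-56831258 (−), each printed 5′ to 3′ on the strand of the gene.
Ccno: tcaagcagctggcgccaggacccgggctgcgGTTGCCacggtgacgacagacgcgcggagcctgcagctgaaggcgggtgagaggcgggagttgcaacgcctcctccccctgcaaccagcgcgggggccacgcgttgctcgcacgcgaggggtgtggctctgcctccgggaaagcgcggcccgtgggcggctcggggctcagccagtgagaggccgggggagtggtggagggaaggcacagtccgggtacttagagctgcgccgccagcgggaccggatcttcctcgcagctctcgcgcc
Mcidas: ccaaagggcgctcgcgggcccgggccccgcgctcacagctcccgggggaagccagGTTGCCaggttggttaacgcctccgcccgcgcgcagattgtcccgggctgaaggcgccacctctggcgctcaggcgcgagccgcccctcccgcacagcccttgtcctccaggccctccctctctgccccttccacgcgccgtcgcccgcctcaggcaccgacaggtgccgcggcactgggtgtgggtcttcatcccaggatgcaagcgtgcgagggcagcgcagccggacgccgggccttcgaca
Deup1: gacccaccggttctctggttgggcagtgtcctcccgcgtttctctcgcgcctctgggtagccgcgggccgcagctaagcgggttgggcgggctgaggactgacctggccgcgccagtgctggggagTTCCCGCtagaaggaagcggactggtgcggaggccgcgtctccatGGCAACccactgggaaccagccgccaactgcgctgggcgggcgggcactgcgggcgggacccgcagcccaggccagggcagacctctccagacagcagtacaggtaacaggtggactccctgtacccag
Rfx2: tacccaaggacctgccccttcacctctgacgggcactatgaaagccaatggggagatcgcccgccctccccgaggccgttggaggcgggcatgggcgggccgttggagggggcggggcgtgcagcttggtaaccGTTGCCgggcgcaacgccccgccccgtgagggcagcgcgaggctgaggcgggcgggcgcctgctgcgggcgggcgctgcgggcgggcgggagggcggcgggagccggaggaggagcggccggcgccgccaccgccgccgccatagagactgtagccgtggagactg
The GCGGGAA motif lay in windows of 2 genes, Deup1 and Trp73, against 4.6% of all promoters and 11.5% of those rich in G and C. The forkhead letters TGTTTA, searched on both strands, were found in 1 window, that of Myb, against 13.4% of all promoters and 2.73% of those rich in G and C. The MYB letters CCGTTA, also on both strands, were found in none of the 11 windows, against 2.76% of all promoters and 2.93% of those rich in G and C. Ccno (chr13:112987802-112990777) and Mcidas (chr13:112993845-113000394) are neighbours on the + strand with 3067 bases between them, and Cdc20b, a further gene of centriole amplification, starts 34716 bases beyond the end of Mcidas.

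Cells were grouped with the 10 regulators and their pathway lists (69 genes in all) held out of the clustering, and classes were named from markers that contain none of the regulators. The ependymal-like class held 41 cells at P2, 345 and 245 cells in P12 replicates 1 and 2 and 25 cells at P22. The active stem cell-like class (aNSC-like) held 190, 434, 159 and 363 cells, and the quiescent stem cell-like class (qNSC-like) held 218, 2479, 1703 and 316 cells, in the same order. All 15 ependymal markers had UMIs in the ependymal-like cells of every library, and they summed to 3122, 2243, 3299 and 7810 CPM (UMIs of a gene per 1e+06 UMIs of the class in a library). Ttr, the most abundant choroid plexus mRNA, was at 0 in the class in all 4 libraries, and the 10 choroid plexus markers summed to 20.4 to 101 CPM there. Ttr levels outside the class are not given, so its 0 alone cannot tell whether choroid plexus cells were absent. Libraries differed in depth, with 65323423 to 106402687 UMIs a library and medians of 11853.5 to 14303 UMIs a cell, and pairs of libraries shared only 3 to 8 cell barcodes.

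The ependymal-like class was mixed, and this bears on every level below. Each cell was given an ependymal marker score, the UMIs of the 15 markers per 10000 UMIs of the cell. Its median in the class was 20.0, 14.3, 18.7 and 35.7 at P2, in P12 replicates 1 and 2 and at P22, against 3.03, 4.95, 4.81 and 5.20 in qNSC-like cells. A score of 30 or more was reached by 16, 49, 84 and 14 of the ependymal-like cells, and 2, 28, 25 and 4 of them lay between 25 and 35. In the cells at 30 or more the 18 qNSC markers had a median of 211, 408, 384 and 378 UMIs per 10000, against 388, 632, 507 and 570 in the cells under 30 and 369, 630, 550 and 673 in qNSC-like cells. The label therefore fits the cells with high scores, and the cells under 30 lay nearer to qNSC-like cells in their qNSC markers than those at 30 or more.

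At P12, 9 of the 10 regulators were higher in ependymal-like than in qNSC-like cells, and none was lower (edgeR quasi-likelihood test on class sums of both libraries, Benjamini-Hochberg adjusted p under 0.05). Over all 13531 genes tested, 9.58% were higher and 5.63% lower. The 9 were Gmnc, Mcidas, Gmnn, Ccno, Deup1, Myb, Trp73, Foxj1 and Rfx2, and Rfx3 did not pass. All 10 passed the filter on low counts, but Gmnc, Mcidas, Deup1 and Trp73 passed it only through their ependymal-like sums. Their part of the count is thus a description, and so are their fold changes and adjusted p below. The ependymal-like cells were also somewhat deeper, with a median of 11465 and 14766 UMIs a cell in P12 replicates 1 and 2, against 9568 and 12084 in qNSC-like cells, which CPM allows for and shares of cells do not.

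**Figure D1:**
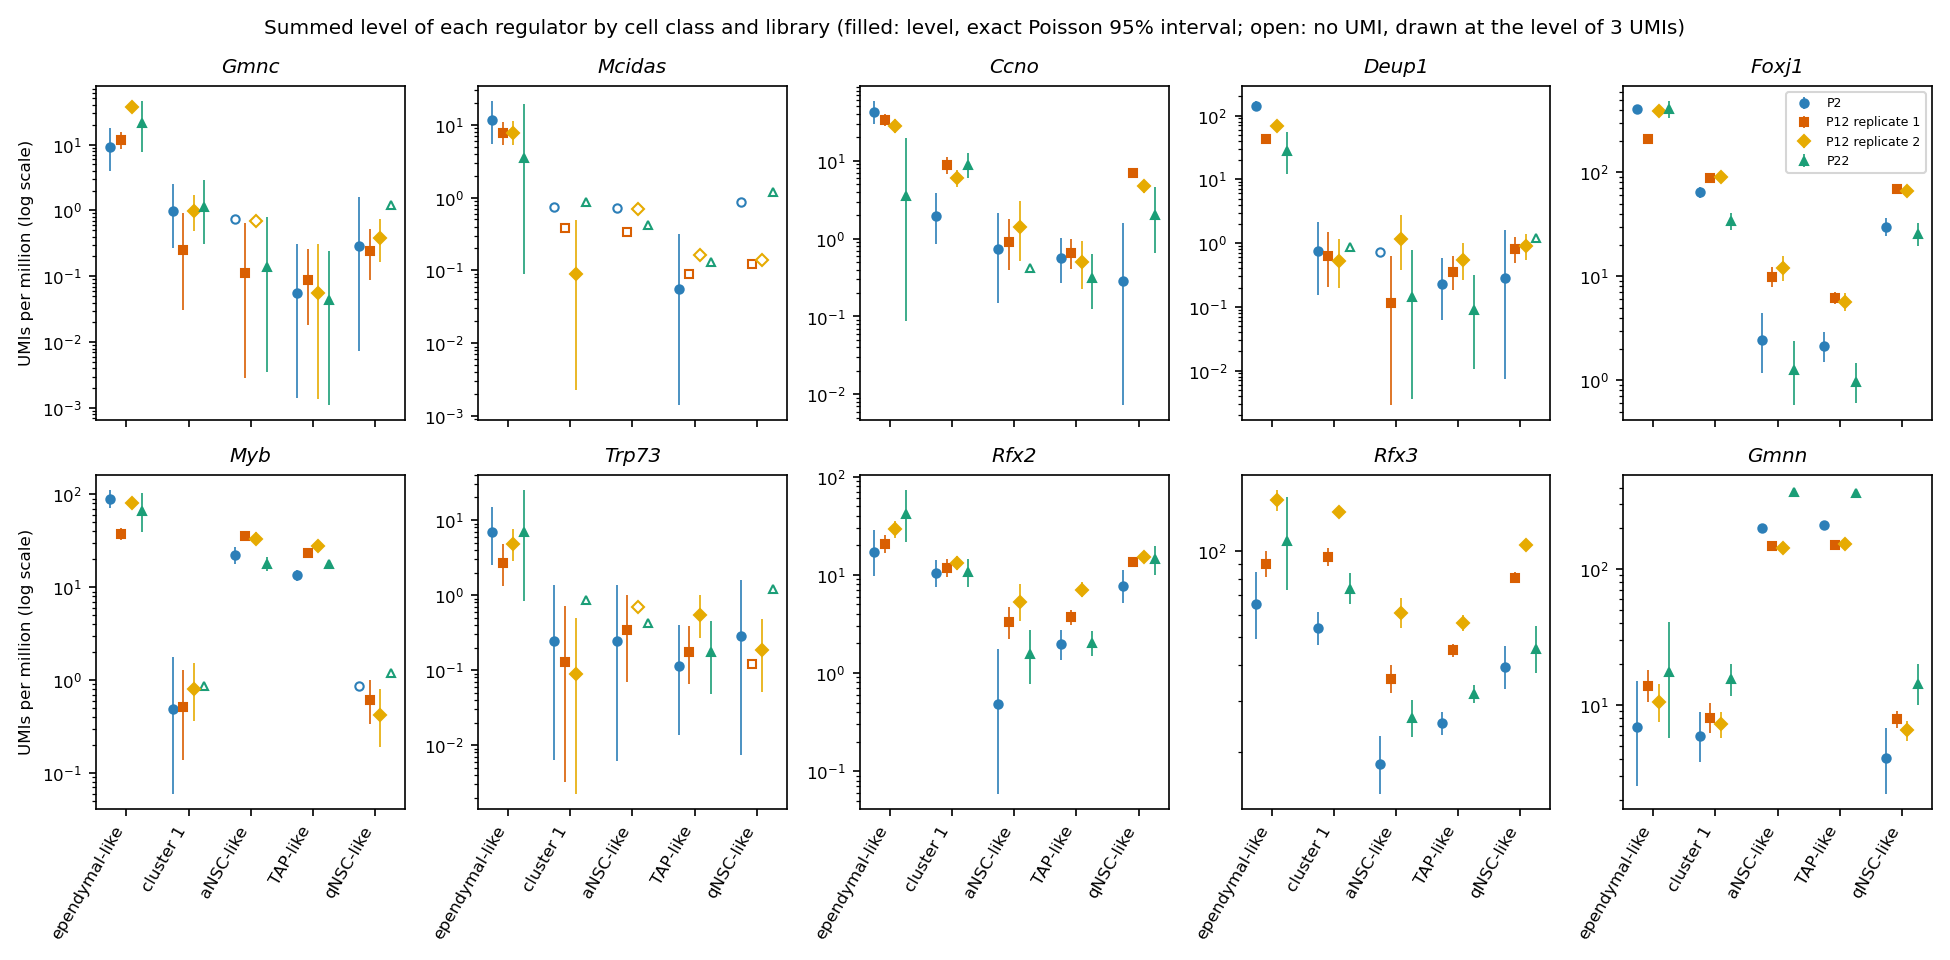
Summed level of each regulator (CPM, log scale, vertical axis) in ependymal-like, cluster 1, aNSC-like, TAP-like and qNSC-like cells (horizontal axis) of the 4 libraries. Filled symbols are levels with exact Poisson 95% intervals and open symbols mark sums with no UMI, drawn at the level of 3 UMIs. Deup1 lay at 141, 43.0, 67.4 and 27.9 CPM in the ependymal-like cells of P2, P12 replicates 1 and 2 and P22 and under 2 CPM in every other class drawn, whereas Gmnn was highest in aNSC-like and TAP-like cells.

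Gmnc, which acts upstream of Mcidas, had 57.1%, 76.2%, 84.0% and 50% of its UMIs in ependymal-like cells at P2, in P12 replicates 1 and 2 and at P22. They held 8, 48, 136 and 6 UMIs, which is 9.16, 11.7, 36.5 and 20.9 CPM. aNSC-like cells held 0, 1, 0 and 1 UMIs, qNSC-like cells 1, 6, 8 and 0 UMIs and cluster 1, an unnamed cluster led by Six3 and Meg3, 4, 2, 11 and 4 UMIs. Neither class of stem cells came near the ependymal-like level in any library, and P12 replicate 2 was the highest of the 4. A Gmnc UMI was found in 12.2%, 10.4%, 24.1% and 16.0% of ependymal-like cells, and in 0 of 161 blood vessel and microglial cells (the endothelial-like and microglia-like classes), cells without motile cilia, where finding none allows up to 1.86% of cells to hold a UMI (median 9986 UMIs a cell). At P12 the log2 fold change over qNSC-like cells was 6.12 (SE 0.39, edgeR adjusted p = 2.14e-06), and 5.40 and 6.46 for replicates 1 and 2 alone. These values are a description, since Gmnc passed the count filter only through its ependymal-like sums. With no genes held out of the clustering the log2 fold change was 0.57 and not called. All classes were drawn anew in that setting, the qNSC-like class too. The class named ependymal-like then took in the cluster led by Six3 and Meg3 and held 714 and 818 cells. That is fewer than the ependymal-like class (345 and 245 cells) and cluster 1 (639 and 730 cells) of the main clustering together. Some of their cells thus lay in other classes. Over aNSC-like cells the Gmnc value moved less in that setting, from 7.82 to 5.46. Why the value over qNSC-like cells fell was not tested. Counts per cell were low: ependymal-like cells with a Gmnc UMI held 1.6, 1.33, 2.31 and 1.5 of them on average, and the highest count in a cell was 12.

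Mcidas UMIs sat in very few cells. In the ependymal-like class, 10, 32, 29 and 1 UMIs were found in 4, 6, 6 and 1 cells of P2, P12 replicates 1 and 2 and P22, or 9.76%, 1.74%, 2.45% and 4.0% of the class, at 11.5, 7.77, 7.79 and 3.48 CPM. No Mcidas UMI was found in aNSC-like or qNSC-like cells of any library, where 0 of 2479 and 0 of 1703 qNSC-like cells at P12 allow shares of cells with a Mcidas UMI of up to 0.121% and 0.176%, which limits detection at this depth and not expression. Against the level of 3 UMIs, ependymal-like cells were at least 64.0-fold and 55.4-fold higher than qNSC-like cells in P12 replicates 1 and 2 and at least 13.3-fold higher at P2, and the edgeR adjusted p at P12 was 4.89e-05. At P22 the single UMI lay under that level, and no fold is given. The adjusted p is a description, since Mcidas passed the count filter only through its ependymal-like sums. Outside the ependymal-like class the remaining Mcidas UMIs came as 1 a cell, and at P2 neuroblast-like cells made up 8 of the 14 cells with a Mcidas UMI, none with a UMI of Foxj1, Deup1 or Myb.

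Gmnn ran the other way. It was found in 835, 1299, 612 and 2630 UMIs of aNSC-like cells at P2, P12 and P22, or 203, 148, 142 and 369 CPM, and in 92.1%, 82.0%, 86.8% and 95.3% of these cells. Ependymal-like cells had 6.87, 13.8, 10.5 and 17.4 CPM and qNSC-like cells 4.03, 7.81, 6.47 and 14.3 CPM. Among the 10 regulators it was the only one called lower in ependymal-like than in aNSC-like cells at P12, with a log2 fold change of −3.57 (SE 0.14, edgeR adjusted p = 1.15e-08). Over qNSC-like cells it was higher by 0.75 (SE 0.18, edgeR adjusted p = 0.0158), a call that was lost without the library block and with all 4 libraries, and the value turned to −0.05 with no genes held out of the clustering.

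Ccno and Deup1, the centriole genes, were higher in ependymal-like than in qNSC-like cells at P12. Ccno had 37, 139, 105 and 1 UMIs in ependymal-like cells, or 42.4, 33.7, 28.2 and 3.48 CPM, against 0.288, 7.04, 4.74 and 1.99 CPM in qNSC-like cells. The ratio at P2 was 147 (95% counting interval 24.8 to 5970), and at P22, on 1 ependymal-like UMI, 1.75 (0.0370 to 15.7). When P22 was clustered on its own, ependymal-like cells had 8.44 CPM (exact Poisson 95% interval 5.77 to 11.9), against 2.01 CPM (0.738 to 4.38) in qNSC-like cells. Of Gmnc, Mcidas, Ccno and Deup1, Ccno was the most widely spread at P12: ependymal-like cells held 28.4% and 29.8% of its UMIs in P12 replicates 1 and 2, and 119 and 78 qNSC-like cells had a Ccno UMI. Of the vessel and microglial cells, 1.86% had a Ccno UMI, against 4.80% and 4.58% of qNSC-like cells at P12. The log2 fold change of ependymal-like over qNSC-like cells was 2.38 (SE 0.20, edgeR adjusted p = 1.53e-05).

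Deup1 had 123, 177, 251 and 8 UMIs in ependymal-like cells, or 141, 43.0, 67.4 and 27.9 CPM, against 0.288, 0.809, 0.891 and 0 CPM in qNSC-like cells. In ependymal-like cells the P2 level was the highest and the P22 level the lowest, and their sum was above that of qNSC-like cells in every library. Single cells overlapped. A Deup1 UMI was found in 10.7% and 22.0% of ependymal-like cells of P12 replicates 1 and 2, and in 18 and 16 qNSC-like cells. Its log2 fold change at P12 was 5.95 (SE 0.27, edgeR adjusted p = 2.59e-07), and the ratio at P2 was 489 (95% counting interval 86.2 to 19480) on a single qNSC-like UMI. The P12 values are a description, since Deup1 passed the count filter only through its ependymal-like sums. At P22 Deup1 was at least 23.4-fold higher against the level of 3 UMIs. A few cells carried most of it: the 5 ependymal-like cells with the most Deup1 UMIs held 68.4% and 53.4% of the class total in P12 replicates 1 and 2, against 17.4% in each replicate for Foxj1 and 5.91% and 8.26% for Rfx3.

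Myb, known for its role in dividing progenitors and in multiciliated cells, was shared between ependymal-like, aNSC-like and transit amplifying progenitor-like (TAP-like) cells. TAP-like cells made up 173 of 317, 501 of 825, 260 of 431 and 266 of 411 cells with a Myb UMI at P2, in P12 replicates 1 and 2 and at P22. Their level was 13.5, 23.2, 27.8 and 17.7 CPM. Ependymal-like cells had 89.3, 37.6, 80.3 and 66.2 CPM at P2, in P12 replicates 1 and 2 and at P22, aNSC-like cells 22.1, 35.9, 33.5 and 17.8 CPM, and qNSC-like cells 0, 0.607, 0.422 and 0 CPM. Both classes stood far above qNSC-like cells, with log2 fold changes at P12 of 6.71 (SE 0.34, edgeR adjusted p = 5.31e-07) for ependymal-like and 6.03 (SE 0.34, edgeR adjusted p = 7.93e-08) for aNSC-like cells. Between the ependymal-like and aNSC-like classes the log2 fold change was 0.67 (SE 0.23, edgeR adjusted p = 0.0249), and the replicates disagreed in size, with ratios of 1.05 (95% counting interval 0.860 to 1.28) in replicate 1 and 2.40 (1.96 to 2.95) in replicate 2. That call was lost without the library block and with DESeq2, and the value turned to −0.88 with no genes held out of the clustering. The distribution over cells differed: 9.86% and 27.3% of ependymal-like cells had a Myb UMI at P12, against 46.5% and 48.4% of aNSC-like cells, at a median of 11465 and 14766 against 19764.5 and 26889 UMIs a cell. No Myb UMI was found in the 161 vessel and microglial cells.

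Trp73 was scarce. Its 6, 11, 18 and 2 UMIs in ependymal-like cells gave 6.87, 2.67, 4.84 and 6.96 CPM, against 1, 0, 4 and 0 UMIs in qNSC-like cells and 1, 3, 0 and 0 UMIs in aNSC-like cells. At P12 the log2 fold change over qNSC-like cells was 5.22 (SE 0.80, edgeR adjusted p = 0.00107) and over aNSC-like cells 3.83 (SE 0.91, edgeR adjusted p = 0.00339). These rest on 29 ependymal-like UMIs of the P12 libraries. They are a description, since Trp73 passed the count filter only through its ependymal-like sums.

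Foxj1 was found in 92.7%, 64.9%, 83.7% and 72.0% of ependymal-like cells, and Rfx3 in 68.3%, 63.5%, 83.7% and 68.0%, but neither was confined to them. Its level was 404, 209, 390 and 404 CPM in ependymal-like cells at P2, in P12 replicates 1 and 2 and at P22, against 29.9, 69.1, 66.7 and 25.5 CPM in qNSC-like cells. Foxj1 UMIs were found in 28.9%, 34.8%, 38.3% and 16.8% of qNSC-like cells, against 1 of the 161 vessel and microglial cells (0.621%), and in 57.4%, 46.2%, 55.2% and 25.3% of the cells of cluster 1, which had a median ependymal marker score of 9.64 to 12.9. A low level of Foxj1 mRNA was thus present in cells that carried qNSC markers at every age. The log2 fold change of ependymal-like over qNSC-like cells at P12 was 2.05 (SE 0.17, edgeR adjusted p = 1.13e-05), and the ratios at P2 and P22 were 13.5 (95% counting interval 10.8 to 17.0) and 15.9 (11.6 to 21.9).

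Rfx2 and Rfx3 had small differences between ependymal-like and qNSC-like cells at P12. Rfx2 had 17.2, 20.6, 29.0 and 41.8 CPM in ependymal-like cells, against 7.77, 13.5, 15.2 and 14.3 CPM in qNSC-like cells. Its log2 fold change at P12 was 0.75 (SE 0.17, edgeR adjusted p = 0.0128), a call that was lost without the library block, with all 4 libraries and with DESeq2, and the value turned to −0.20 with no genes held out of the clustering. Rfx3 had 65.3, 90.3, 149.7 and 107.9 CPM in ependymal-like cells, against 39.4, 80.8, 105.0 and 45.7 CPM in qNSC-like cells. Its log2 fold change of 0.31 (SE 0.11, edgeR adjusted p = 0.0846) missed the threshold, and passed it when only the ependymal-like cells with scores of at least 30 were summed (0.55), with all 4 libraries (0.53) and with only these 2 classes in the fit (0.35).

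**Figure D2:**
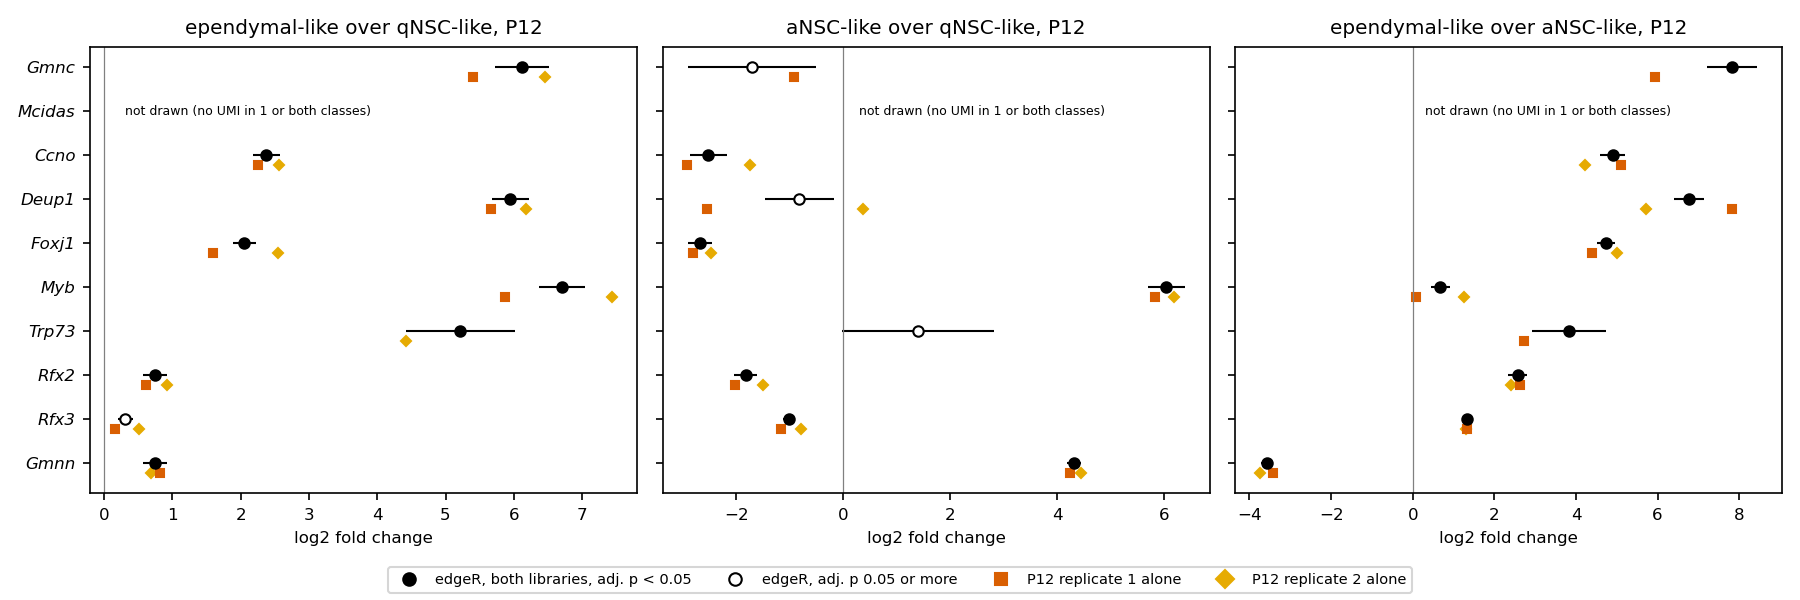
Log2 fold changes of the regulators at P12 (horizontal axes) for ependymal-like over qNSC-like, aNSC-like over qNSC-like and ependymal-like over aNSC-like cells. Circles are edgeR values over both libraries with bars of 1 SE, filled where the adjusted p is under 0.05, and squares and diamonds are replicates 1 and 2 alone. In the panel of ependymal-like over qNSC-like cells every value drawn lies above 0, and in the panel of ependymal-like over aNSC-like cells only Gmnn lies below 0.

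The directions were the same in the cells with high scores alone. These cells were picked by their ependymal markers, so the counts of regulators in them are a description. Gmnc, Mcidas, Deup1 and Trp73 also passed the filter of the main fit only through their ependymal-like sums. With only the ependymal-like cells at scores of 30 or more, a limit set after the mixture was seen, all 10 regulators were higher than in qNSC-like cells at P12, against 17.4% of the 13616 genes then tested, and 9 were higher and Gmnn lower than in aNSC-like cells, where 56.6% of genes were called (28.7% higher and 27.9% lower). Within the class, Deup1 was at 216 and 150.4 CPM in the cells at 30 or more of P12 replicates 1 and 2, against 5.32 and 12.5 CPM in those under 30. Mcidas was at 43.4 and 19.6 CPM, against 0 and 0 CPM, and Myb at 191 and 172 CPM, against 4.14 and 19.7 CPM. Ccno was at 123 and 53.3 CPM, against 14.2 and 11.6 CPM, and Foxj1 at 572 and 718 CPM, against 130.1 and 172 CPM. Gmnc differed less, at 20.3 and 47.2 CPM against 9.76 and 29.5 CPM, and Rfx2 (25.8 and 34.4 against 19.5 and 25.5 CPM), Rfx3 (114 and 167 against 85.2 and 138 CPM) and Gmnn (14.9 and 12.8 against 13.6 and 8.93 CPM) differed little. The cells at 30 or more were deeper, with medians of 14660 and 18112.5 UMIs, against 11136 and 13713.

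Active stem cells differed from quiescent ones in 6 of the 10 regulators. At P12, 2 regulators were higher (Gmnn and Myb, against 33.7% of all genes tested) and 4 lower (Foxj1, Ccno, Rfx2 and Rfx3, against 34.6%) in aNSC-like than in qNSC-like cells, shares that lie near the background. The log2 fold changes were 4.31 for Gmnn, 6.03 for Myb, −2.67 for Foxj1, −2.52 for Ccno, −1.82 for Rfx2 and −1.01 for Rfx3, with edgeR adjusted p between 1.0e-09 and 6.88e-05. Foxj1 fell to 2.43, 9.90, 12.1 and 1.26 CPM in aNSC-like cells of P2, P12 replicates 1 and 2 and P22, against 29.9, 69.1, 66.7 and 25.5 CPM in qNSC-like cells. Gmnc, Deup1 and Trp73 had 0 to 5 UMIs in each aNSC-like sum and did not pass the test, and Mcidas had none. Against aNSC-like cells, 9 regulators were higher in ependymal-like cells (32.5% of all genes tested) and Gmnn was lower (33%), and here too the part of Gmnc, Mcidas, Deup1 and Trp73, which passed the filter only through their ependymal-like sums, is a description. The log2 fold changes ran from 0.67 for Myb and 1.32 for Rfx3 to 7.82 for Gmnc, leaving aside Mcidas, which had no aNSC-like UMI and was at least 22.7-fold and 11.2-fold higher in P12 replicates 1 and 2 against the level of 3 UMIs.

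When cells were sorted by the ependymal marker score instead of by class, the regulators came up at different scores. The bands pool ependymal-like, qNSC-like, cluster 1 and cluster 3 cells, were set after the mixture was seen, and are given without a test. Gmnc was at 0.104, 0.265, 3.51, 12.1 and 10.5 CPM in P12 replicate 1 for scores under 5, 5 to 10, 10 to 20, 20 to 40 and 40 or more, and at 0.236, 0.848, 5.09, 24.3 and 38.9 CPM in replicate 2. Mcidas was at 0 CPM in the 4 lower bands of replicate 1 and at 67.3 CPM at scores of 40 or more, and in replicate 2 it was at 0, 0.0707, 0, 0 and 25.04 CPM. Gmnc was thus already present at scores from 10 to 40, where Mcidas had no UMI in either P12 library.

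Deup1, Myb and Ccno had their steepest step at the highest band. Deup1 was at 13.9 CPM for scores of 20 to 40 in both P12 libraries, and at 303 and 179 CPM for scores of 40 or more. Myb was at 7.84 and 25.6 CPM in the band of 20 to 40, and at 279.7 and 193 CPM at 40 or more. Ccno was at 14.5 and 6.50 CPM, and at 164 and 65.6 CPM. Foxj1 climbed throughout, from 60.3 and 58.9 CPM under 5 to 169 and 192 CPM at 20 to 40 and 685 and 823 CPM at 40 or more, while Rfx3 changed little between 80.9 and 130 CPM in replicate 1. The highest band held 15, 32, 64 and 19 cells of P2, P12 replicates 1 and 2 and P22, of which 13, 29, 60 and 12 were ependymal-like.

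**Figure D3:**
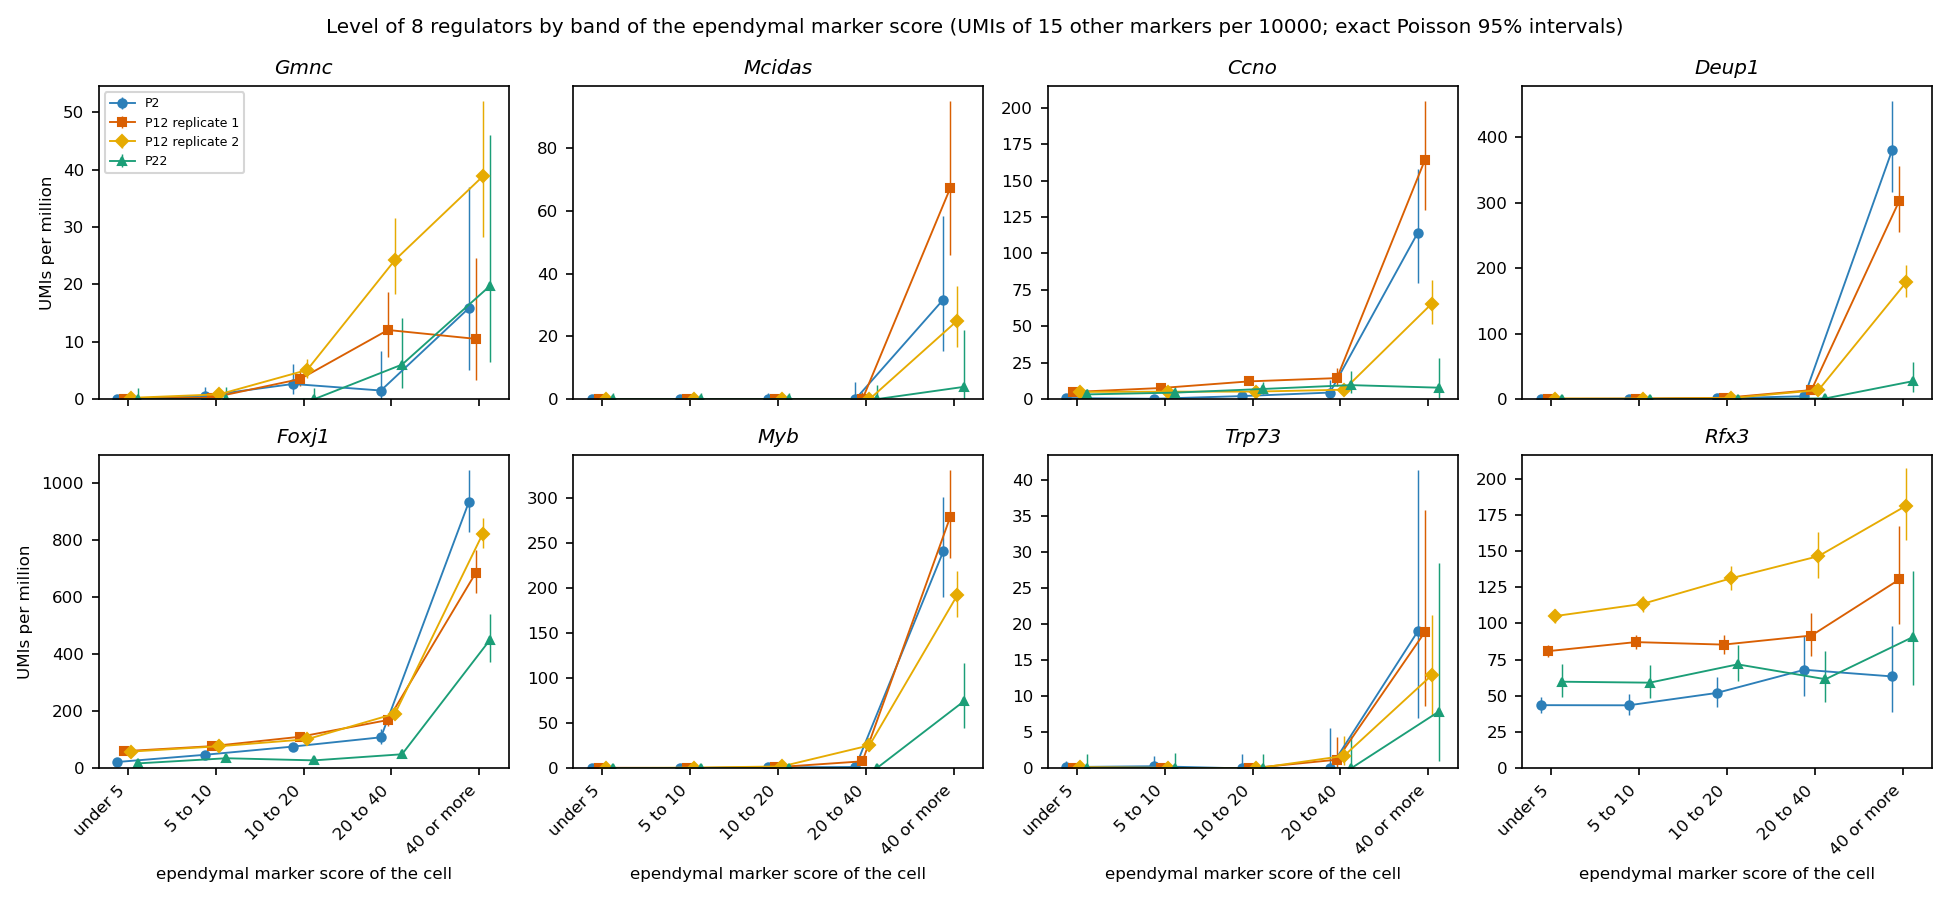
Level of 8 regulators (CPM, vertical axis) by band of the ependymal marker score (horizontal axis, UMIs of 15 markers per 10000), 1 line a library, with exact Poisson 95% intervals. Mcidas leaves 0 only in the highest band at P2, P12 and P22, apart from 1 UMI in replicate 2, whereas Gmnc reaches 12.1 and 24.3 CPM in the band of 20 to 40 of P12 replicates 1 and 2.

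The ependymal-like cells with a Mcidas UMI held most of the Deup1 of their class. At P2 and P12 there were 16 of them, with 1 to 10 Mcidas UMIs each. In P12 replicate 1 the 6 cells held 3.37% of all UMIs of the class, but 121 of its 177 Deup1 UMIs (68.4%), 92 of its 155 Myb UMIs (59.4%) and 68 of its 139 Ccno UMIs (48.9%). In replicate 2 the 6 cells held 4.20% of all UMIs, 58.6% of Deup1, 36.1% of Myb and 53.3% of Ccno UMIs, and at P2 the 4 cells held 15.5% of all UMIs, 95.9% of Deup1, 97.4% of Myb and 91.9% of Ccno UMIs. Gmnc did not rise above the share of all UMIs. These cells held 1 of 8, 0 of 48 and 3 of 136 of its UMIs at P2 and in P12 replicates 1 and 2, counts too small to place it below that share. At P12, Rfx3 (2.96% and 4.49% of its UMIs) and Gmnn (3.51% and 5.13%) also stayed near the share of all UMIs.

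All 16 cells had Deup1 (2 to 41 UMIs, median 26), Foxj1 (14 to 66, median 43.5) and Myb (3 to 44, median 16.5), and 15 had Ccno (0 to 31, median 7.5). Trp73 was found in 9 of them, Gmnn in 4 and Gmnc in 2. Cdc20b, a gene of centriole amplification next to Mcidas, was at 59.3, 57.7 and 51.3 CPM in these cells at P2 and in P12 replicates 1 and 2, against 0, 0 and 0.281 CPM in ependymal-like cells without a Mcidas UMI. These cells were chosen by Mcidas, a member, and were deep, with 14835 to 50685 UMIs each, so the counts are a description.

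Of the cell cycle genes, Top2a (topoisomerase 2-alpha, of S to M phase) was found in 13 of the 16 cells and Mki67 (the proliferation antigen Ki-67) in 3. Top2a was at 689, 303 and 269 CPM in these cells at P2 and in P12 replicates 1 and 2, against 9.48, 7.79 and 5.89 CPM in ependymal-like cells without a Mcidas UMI. Mki67 was at 37.1, 7.21 and 0 CPM in the same cells, against 2.71, 6.78 and 2.81 CPM in those without. In TAP-like cells, the transit amplifying progenitors that divide, both genes were high, at 1202, 2163 and 2359 CPM of Top2a and 445, 1108 and 1408 CPM of Mki67, and aNSC-like cells had 151, 309 and 272 CPM of Top2a and 33.7, 103 and 101 CPM of Mki67. The cells with Mcidas thus had 18.6 Top2a UMIs per Mki67 UMI at P2 and 42 in P12 replicate 1, against 2.70 and 1.95 in TAP-like cells of the same libraries, ratios that rest on 5 and 1 Mki67 UMIs. Scrublet put none of these 16 cells among the 5% of cells with the highest doublet scores of its library.

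Across the ependymal-like class, cells with a UMI of a regulator more often had UMIs of the others. For 39 of the 45 pairs of regulators, the share of cells with the second was higher among cells with the first than among cells without it in both P12 libraries, and for 25 pairs when each cell was thinned to 5000 UMIs. Among cells with a Deup1 UMI, 56.8% and 63.0% had Myb in P12 replicates 1 and 2, against 4.22% and 17.3% of those without, and after thinning 56.3% and 66.7%, against 3.69% and 15.6%. Median depth was 14184 and 17470.5 UMIs in cells with Deup1, against 11195.5 and 14329 in those without.

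Myb was found in 25% and 47.5% of ependymal-like cells with a Gmnc UMI in P12 replicates 1 and 2, against 8.09% and 21.0% of those without, and after thinning in 23.1% and 50%, against 5.49% and 16.5%. Deup1 was found in 30.6% and 40.7% of cells with a Gmnc UMI, against 8.41% and 16.1% of those without, and after thinning in 7.69% and 16.7%, against 4.57% and 8.96%, which is 1 of 13 and 5 of 30 cells with Gmnc. Ccno was found in 11.1% and 20.3%, against 13.3% and 12.9%. Mcidas was found in 0 of 36 and 1 of 59 cells with Gmnc (1.69%), against 1.94% and 2.69% of those without, counts too small to show a difference in either direction.

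**Figure D4:**
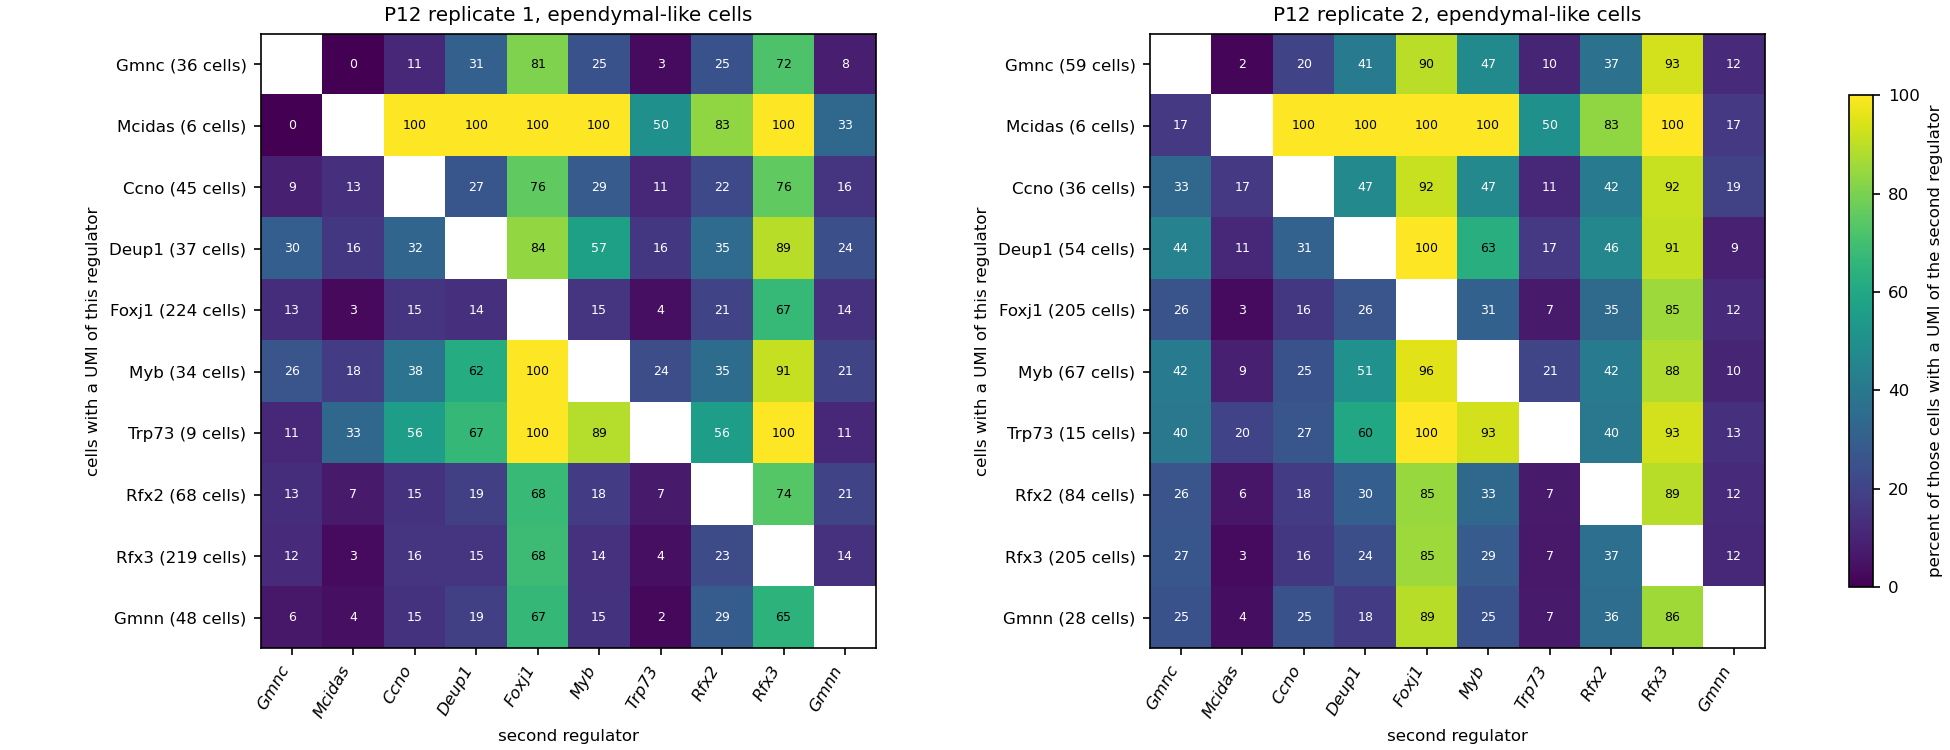
Percent of ependymal-like cells with a UMI of the regulator of the row that also had a UMI of the regulator of the column, in P12 replicates 1 and 2 (colour and number, 0 to 100%). The Mcidas rows reach 100% for Ccno, Deup1, Foxj1, Myb and Rfx3 in both libraries (6 cells each), and the Gmnc rows hold 0% and 2% for Mcidas.

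Cells with UMIs of at least 2 of the 4 early regulators Gmnc, Mcidas, Ccno and Deup1 were rare, with 8, 24, 46 and 4 cells at P2, in P12 replicates 1 and 2 and at P22. Of these 82 cells, 68 were in the ependymal-like class (82.9%). By library, in the same order, the share was 62.5%, 95.8%, 80.4% and 75%. The class made up only 1.02%, 4.93%, 5.33% and 0.591% of the libraries. Foxj1 was found in 7, 20, 42 and 3 of the cells with at least 2 early regulators, and their median ependymal marker score was 50.6, 35.4, 37.1 and 122. Thinned to 5000 UMIs a cell, 3, 10, 12 and 0 such cells were left.

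The 8 cells at P2 were set beside the 29 ependymal-like cells with none of the 4 genes. The genes with the largest ratios included Hist1h1b, Ckap2l, Ccna1, Top2a, Cenpf, Cdca8, Knl1, Pttg1, Cks2 and Ccnb2, and among them were Spag17, a protein of the ciliary axoneme, and Smim24. Ccna1, a cyclin best known from meiosis, had 105 UMIs (440.4 CPM) in the 8 cells, against 1.77 CPM in the 29 cells, and Top2a 675 CPM against 8.83 CPM. The genes with the smallest ratios were led by Hes5, S1pr3, Gmpr and Hopx, with Hes5, a Notch target of radial glia, at 41.9 CPM against 1185 CPM, Fabp7, a radial glia gene, at 759 CPM against 10950 CPM, and Aqp4, the astrocyte water channel, at 4.19 CPM against 150.2 CPM. The cells were chosen by the members and 3 of the 8 lay outside the ependymal-like class, 1 in the dividing TAP-like class, so these ratios are a description of 1 library.

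P2 and P22 are set side by side here by their values. In ependymal-like cells Gmnc was at 9.16 CPM at P2 and at 20.9 CPM at P22, with exact Poisson 95% intervals that overlap, 3.96 to 18.1 and 7.67 to 45.5 CPM. Ccno was at 42.4 CPM at P2 and at 3.48 CPM at P22, and Deup1 at 141 and 27.9 CPM, with exact Poisson 95% intervals of 29.8 to 58.4 and 0.0882 to 19.4 CPM for Ccno and 117 to 168 and 12.0 to 54.9 CPM for Deup1. The P2 values of Ccno and Deup1 came mostly from the 4 cells with a Mcidas UMI. In ependymal-like cells without one, Ccno was at 4.07 CPM at P2 and at 3.76 CPM at P22, and Deup1 at 6.77 and 26.3 CPM. Foxj1 was at 404 CPM at both ages in the whole class, and Rfx2 at 17.2 and 41.8 CPM. The intervals cover counting error only, the P22 class held 25 cells, and 1 library an age allows no test. P12 libraries were processed with Cell Ranger 3.1.0 and P2 and P22 with 5.0.1, so for P12 against the other ages the version and the age cannot be told apart. When P2 and P22 were clustered on their own, the cluster named ependymal-like held 178 and 343 cells. Ccno was then at 13.4 and 8.44 CPM and Deup1 at 38.9 and 2.37 CPM. Gmnc was at 2.80 and 2.37 CPM, Myb at 24.3 and 5.01 CPM and Rfx2 at 12.4 and 13.4 CPM. The P2 and P22 levels of these genes thus depended on how the class was drawn. In that clustering, 6 of the 8 and 4 of the 4 cells with at least 2 early regulators lay in the ependymal-like cluster.

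The other genes of the pathway were counted in 3 lists. Between ependymal-like and qNSC-like cells at P12, 9.58% of all genes tested were higher and 5.63% lower. Of 20 motile cilium genes, 20 were higher in ependymal-like than in qNSC-like cells at P12 (median log2 fold change 2.75, against −0.06 over all genes tested), led by Hydin (6.03), Dnah11 (5.0) and Dnah9 (4.16), a central-pair protein and outer-arm dynein heavy chains. The ependymal markers that named the class include other cilium genes, such as Dnah12 and Ak7. This count is therefore partly set by how the class was made. Of 13 centriole amplification genes, 4 were higher and none lower (median 0.33), among them Cdc20b, which had no UMI in qNSC-like or aNSC-like cells, Stil (3.42) and Ccp110 (0.44). Of the 14 tested partners and family members of the 10 regulators, 1 was higher, Cdt1 (2.38), the licensing factor that Gmnn inhibits. The other 13, among them E2f4, E2f5, Tfdp1, Rfx4 and Trp63, did not pass.

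In aNSC-like against qNSC-like cells, 33.7% of all genes tested were higher and 34.6% lower. Beside these shares, the 4 partners called lower, of 14 tested, are no more than the background. Of the 13 centriole genes 10 were higher (Stil 5.68, Plk4 3.21 and Ccdc78 2.90 lead), of the partners 7 were higher (Cdt1 5.71, Mybl2 4.97, Tfdp1 3.19) and 4 lower (Rfx1 −1.17, Foxj2 −0.99, Rfx4 −0.82 lead), and of the motile cilium genes 16 were lower and none higher. In ependymal-like against aNSC-like cells, 32.5% of all genes tested were higher and 33% lower. The 4 partners called higher there, of 14 tested, are no more than that background. Of the centriole genes, 1 was higher (Cdc20b) and 9 were lower (Plk4 −2.67, Stil −2.27 and Cenpj −2.05 lead). Plk4, the kinase that starts centriole duplication in dividing cells, was at 36.65, 15.05, 13.7 and 24.4 CPM in ependymal-like cells of P2, P12 replicates 1 and 2 and P22, against 59.9, 97.1, 86.7 and 66.0 CPM in aNSC-like cells. All 20 motile cilium genes were higher than in aNSC-like cells, a count again partly set by how the class was made. Of the partners 4 were higher (Trp63 3.55, Rfx1 1.74, Rfx4 0.96 lead) and 8 lower (Mybl2 −4.56, Cdt1 −3.33, Tfdp1 −3.07 lead).

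Across 43 class-by-library sums, the genes whose levels followed a regulator most closely are given as a description, since the sums share libraries and classes. By Pearson r of log2(CPM + 1) over 14272 genes, Gmnc was closest to Dnah12 and Cfap65 (0.97 each) and Ak7 (0.96). Dnah12 and Ak7 are among the ependymal markers from which the ependymal-like class was named. Their r with Gmnc is therefore partly set by how the classes were made. Mcidas was closest to 4833427G06Rik (0.94), Lrrc43 (0.93) and Dnaaf1 (0.92), and Deup1 to Lrrc43 (0.96), 4833427G06Rik (0.95) and Cdh26 (0.95). Foxj1 was closest to Cfap54 (0.96), Spef2 (0.95) and Ccdc39 (0.94). Ccno followed its nearest genes less closely, Thbs1 and Slc44a3 at 0.83 each and Ttll8 at 0.81.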

How the data were processed

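The 4 matrices hold whole UMI counts per gene and cell barcode, made and deposited by the authors with Cell Ranger (3.1.0 for P12, 5.0.1 for P2 and P22, per the file headers) on mm10. The other deposited files give gene and barcode names, and no column was left unused (0). Barcodes had to hold 2000 to 8000 genes and no more than 10% mitochondrial UMIs, which left 4027, 7004, 4596 and 4230 cells at P2, in P12 replicates 1 and 2 and at P22. Scrublet (scanpy 1.11.5) called 42, 108, 3 and 47 doublets. They were kept, none was in the ependymal-like class, and the 5% of cells with the highest scores were left out as an alternative. The P12 libraries were integrated and clustered in Seurat 5.3.0 (2000 variable genes, 20 components, resolution 0.5), with the 69 genes of the members and lists held out, and labels were transferred to P2 and P22. Clusters were named from marker lists, so class names are rebuilt and may differ from the study's.

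UMIs were summed per class and library and tested at P12 with the edgeR 4.0.16 quasi-likelihood test (R 4.3.3, TMM, filterByExpr, 3 classes and 2 libraries, library as a block, 2 residual degrees of freedom) with Benjamini-Hochberg adjustment over 13531 genes and a threshold of 0.05. Sums of 1 library share their animals, which is where the pairing comes from. Replicates are independent experiments of pooled animals. With the block, p-values measure how far the class differences vary between 2 libraries. Much of that spread is estimated from all genes together (8.60 prior degrees of freedom). Alternatives were DESeq2 1.42.0, no library block, no filter, 2500 to 7500 genes, all 4 libraries, other classes and leaving out a library. The test was checked on simulated counts. Intervals are exact (Poisson for sums, Clopper-Pearson for shares, 95%) and cover counting error only, and a count of 0 is given the limit of 3 counts. Shares were also computed on cells thinned to 5000 UMIs.

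The members and lists were chosen with earlier results of these data known. Named genes were the 10 members, the 3 largest changes past the threshold in each direction of each pathway list, the 3 genes most like Gmnc, Mcidas, Ccno, Deup1 and Foxj1 among genes with a mean of at least 1 CPM over sums of at least 20 cells, and genes among the 15 largest and 15 smallest ratios of CPM + 5 at P2, with a UMI in at least 25% of the cells of the higher side. Others named beside them were chosen after their values were seen, as were the score cut of 30 and the score bands.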

Additional observations from a re-analysis of the deposited data

How the results depend on the processing

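The count of genes called between ependymal-like and qNSC-like cells at P12 depended on the fit. It was 2058 (63.0% of them higher), 684 without the library block that pairs the classes (93.3% higher, "no replicate block"), 1126 with all 4 libraries (81.2% higher), 1307 with DESeq2 (79.0% higher) and 4194 with only the ependymal-like cells at scores of 30 or more, and 71.8% were higher without the highest doublet scores. With no genes held out of the clustering, Rfx2 turned to −0.20 and Gmnn to −0.047 on the log2 scale against qNSC-like cells, and Myb to −0.88 in ependymal-like against aNSC-like cells. Thinning to 5000 UMIs moved the pairs of regulators found together more often from 39 to 25, the cells with at least 2 early regulators from 82 to 25, and their share in the ependymal-like class from 82.9% to 96%. With a library left out no call could be tested, and the Gmnc log2 fold change over qNSC-like cells ranged between 5.40 and 6.46. Of the values of single genes, 412 stayed within the spread or on their side of the threshold, 77 moved, 8 lost and 7 gained the threshold and 3 turned round.

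Depth limits Mcidas, Trp73 and all P22 values of the early regulators, which rest on 1 to 8 UMIs in ependymal-like cells. The ependymal-like class held 41 and 25 cells at P2 and P22 and was named there by label transfer. The causes of these differences were not tested.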
